A study of Mus musculus with 8 samples.

Results

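The data described here are the RNA profiles of the small intestine of 14-day-old suckling mice that had received vehicle. They comprise the 4 libraries whose treatment label is Vehicle, of 8 libraries in the series; the other 4, from arsenic-treated mice, were left out of every value below, except where TMM over all 8 libraries served as an alternative scaling. All animals were hUGT1 transgenic mice, a line that carries the human UGT1 locus of glucuronidating enzymes, including the enzyme that conjugates bilirubin, and they were sampled at 2 weeks of age with a labelled time of 24 h. RNA from 12 mice was combined into 4 libraries of 3 mice each, which are called pools 1 to 4 here after the vehicle replicate numbers, and the numbers serve only as names. The labels name the tissue as small intestine without a segment, and give neither the sex of the mice nor the vehicle or its route. Because each pool mixes 3 animals and all layers of the gut wall, the values are averages, and fewer cells of a type and less RNA per cell cannot be told apart in them.

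Before weaning, the mouse small intestine is lined by enterocytes specialised for milk. They split lactose at the brush border, package milk fat into chylomicrons, and, mainly in the distal part, take up whole milk proteins by endocytosis and digest them in large lysosomes. Maternal antibodies are carried across the epithelium by the neonatal Fc receptor, and adult features such as sucrase, Paneth cells and a full lymphocyte population develop towards weaning.

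The pools held 18786779 to 27369320 counts. Of 24411 gene symbols, 5449 were at 0 in all 4 pools and 13785 reached 1 CPM in every pool. CPM is the count of a gene after all libraries are brought to a common total, here with the TMM factors of the 4 pools. CPM counts reads and therefore grows with transcript length. It is used below to rank genes by their share of the reads and to compare pools, whereas levels of different genes are otherwise compared as TPM, in which counts are divided by the summed exon length of the gene and the library is then scaled to the same total as CPM. Every pair of pools differed by more than counting error, with a chi-square per degree of freedom of 3.062 to 11.14, so no library was a repeat of another. The defining markers of the labelled tissue were present at high levels, as described next, whereas 4 of 5 colon genes (Hoxa13, Hoxb13, Hoxd13 and Car1) were at 0 in all 4 pools.

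Apolipoprotein transcripts headed the profile. Apoa4, which encodes the apolipoprotein that enterocytes secrete on chylomicrons during fat absorption, had 31993, 45436, 41857 and 43858 CPM in pools 1 to 4, a mean of 40786 CPM against 9869 CPM for the gene with the next largest share of reads. It took 3.30% of all counts in pool 1 and 4.46% in pool 2. Apoa1, the main apolipoprotein of high-density lipoprotein, followed with 8407, 10533, 9977 and 10557 CPM, and Apob, the structural protein of the chylomicron, with 6806, 7750, 8487 and 7827 CPM. Pool 1 was the lowest for each of these 3 genes. On the length-corrected scale Apoa4 reached 74287 ± 9044 TPM (SD, n = 4 pools, as for every SD below), Apoa1 26424 ± 2014 TPM and Apob 1835 ± 150 TPM, so the order of the first pair held while Apob, a very long transcript, moved far down.

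The 3 most abundant apolipoprotein genes on the TPM scale lie next to each other on chromosome 9 (mm10, GENCODE M21 gene spans). Apoa1 spans chr9:46228580-46230466 on the plus strand, Apoc3, an inhibitor of triglyceride clearance, chr9:46232933-46235636 on the minus strand, and Apoa4 chr9:46240696-46243459 on the plus strand. Apoc3 had 2504 ± 248 TPM. The fourth gene of the cluster, Apoa5, begins 25173 bases beyond Apoa4 and had only 0.555 ± 0.062 TPM in the same libraries. The levels within the cluster therefore ran from 0.555 to 74287 TPM.

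**Figure D1:**
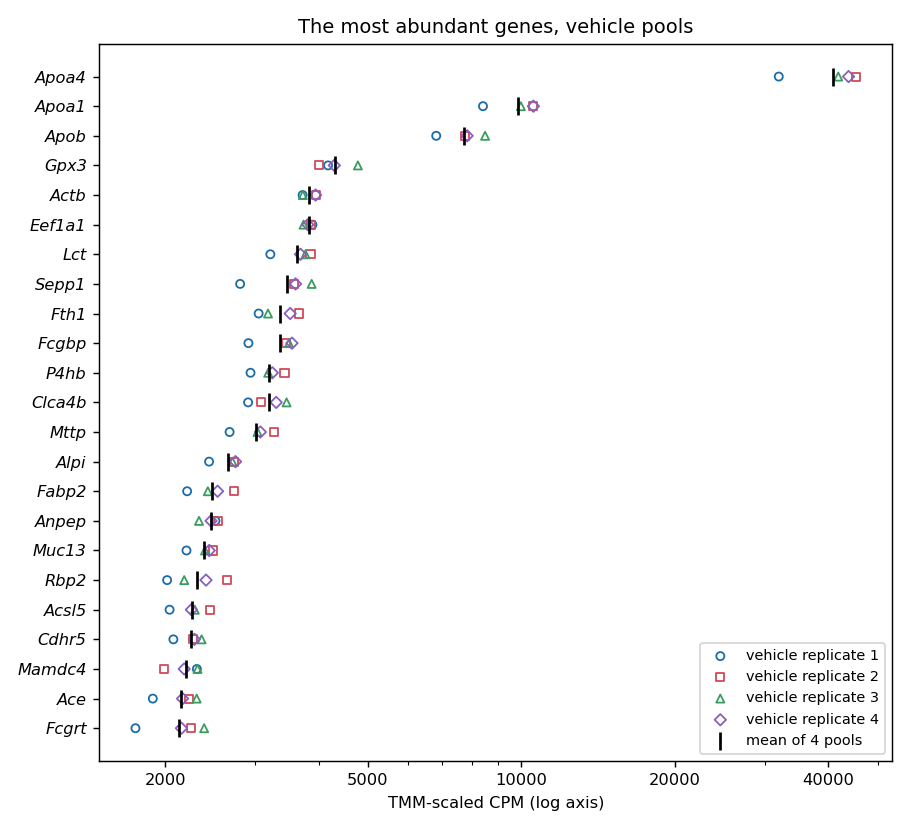
CPM of the most abundant genes (log axis; those named here from the 25 highest) in each of the 4 vehicle pools, with a bar at the mean. Apoa4 stands alone at 31993 to 45436 CPM, and the open circles of pool 1 lie at the left of most rows.

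Of the 25 genes with the highest CPM, 12 belonged to the lists of absorptive or suckling genes. The next ranks after the apolipoproteins held Gpx3, a secreted glutathione peroxidase (4175, 4003, 4777 and 4295 CPM), and the widely expressed Actb (beta-actin) and Eef1a1 (translation elongation factor) at means of 3835 and 3827 CPM. Selenoprotein P, listed under its older symbol Sepp1, had 2806, 3581, 3876 and 3605 CPM, and Fth1, the ferritin heavy chain that stores iron, had 3051, 3664, 3183 and 3518 CPM. Mamdc4, which encodes endotubin of the apical endosomes of suckling enterocytes, had 2308, 1990, 2314 and 2180 CPM. Goblet cells were represented in this rank by Fcgbp, a protein of the mucus gel, with 2913, 3450, 3500 and 3547 CPM. Further places went to P4hb, Clca4b, Muc13 and Rbp2, at means of 2312 to 3200 CPM, and to list members described below. Rbp2, the retinol carrier of enterocytes, stood higher with length correction, at 7948 ± 679 TPM. Of the 25 highest genes by CPM, 16 were also among the 25 highest by TPM.

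The 10 most abundant genes held 8.40% ± 0.73 of the counts, the 25 most abundant 12.2% ± 0.87 and the 100 most abundant 20.9% ± 0.91. It took 994 genes to reach 50% of the counts. Among the 100 most abundant genes, 23 were on the absorptive lists, 11 on the suckling lists, 2 on the stromal lists and 1 on the secretory lists, 2 encoded ribosomal proteins, 4 were pancreatic, and 55 were on no list. In shares of all counts, the 77 absorptive genes took 9.43%, 11.1%, 10.9% and 11% in pools 1 to 4, and the 33 suckling genes 2.28%, 2.28%, 2.44% and 2.32%. The stromal, secretory, immune and crypt lists each took under 1% in every pool, with mean sums of 9076 ± 303, 8434 ± 526, 1962 ± 45 and 1903 ± 106 CPM.

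**Figure D2:**
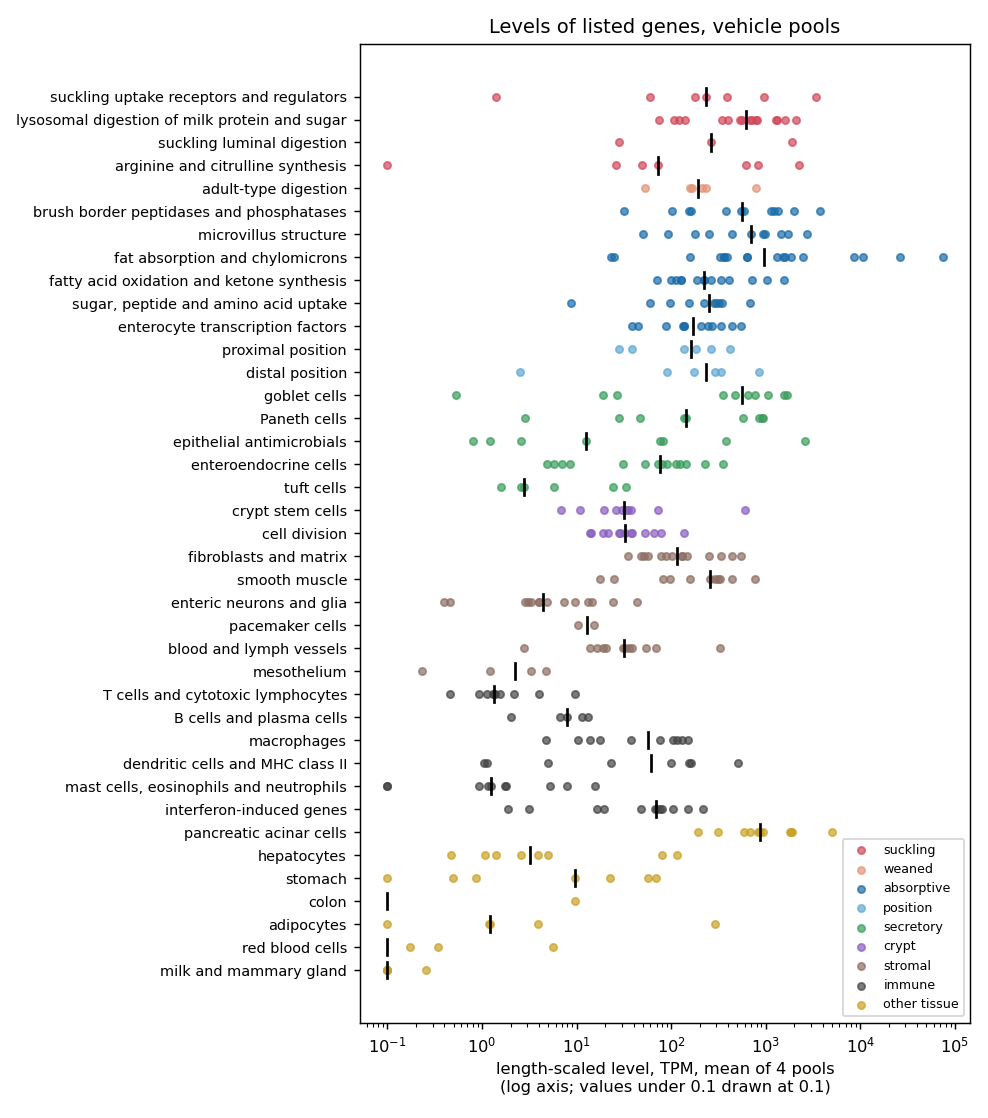
Mean TPM over the 4 vehicle pools of each listed gene (points, log axis, values under 0.1 drawn at 0.1), by gene list and coloured by class, with a bar at the list's median. Lists of fat absorption, microvilli, lysosomes and brush border enzymes have medians of 566 to 969 TPM, and the T cell list has a median of 1.35 TPM.

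The fat absorption list was detected whole, with all 18 genes at 1 CPM or more in every pool and a median of 969 TPM, against 19.98 TPM over all 13725 detected genes with a length. After Apoa4 and Apoa1 its highest members were the fatty acid binding proteins, which carry lipid through the enterocyte cytoplasm. Fabp1 had 1559, 2132, 1633 and 1804 CPM and Fabp2 had 2208, 2731, 2425 and 2534 CPM, and pool 2 was the highest for both. Per length the order was Fabp1 over Fabp2, at 10653 and 8488 TPM, with a Fabp2 to Fabp1 ratio of 0.801 ± 0.049 and below 1 in 4 of 4 pools. Mttp, which loads lipid onto Apob, had 2676, 3269, 3035 and 3075 CPM, and Acsl5, which activates long-chain fatty acids, had 2040, 2446, 2286 and 2251 CPM. Apoc2, the cofactor of lipoprotein lipase, was the low member at 4.99, 6.63, 6.78 and 6.01 CPM.

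Pool 1 was the lowest of the pools for 16 of the 17 fat absorption genes that averaged 10 CPM or more, while 29.3% of all 10145 genes at that level were lowest there. The summed level of the list was 59955 CPM in pool 1, against 79216, 74744 and 76758 CPM in pools 2, 3 and 4. The median gene of the list lay 0.22 below the mean of the other pools on the log2 scale. Fatty acid oxidation and ketone synthesis showed the same order, with 14 of 14 genes lowest in pool 1, and microvillus structure likewise with 11 of 11. These counts were 15 of 17, 11 of 14 and 8 of 11 when libraries were scaled by their totals alone, a scaling under which 14% of the 10145 genes were lowest in pool 1. Over all absorptive lists 62 of 76 genes were lowest in pool 1, or 49 of 76 with library totals.

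Ketone synthesis and fat oxidation genes were all detected, with a median of 220 TPM over 14 genes. Acaa2, the thiolase of mitochondrial beta-oxidation, had 439, 475, 479 and 494 CPM, which is 1031 TPM on average. Acadl, a long-chain acyl-CoA dehydrogenase of the same pathway, had 401, 451, 428 and 451 CPM, which is 715 TPM, and pool 1 was the lowest for both. The spread of these genes was small, with a median coefficient of variation (CV, SD over mean) of 5.10% for the list, next to 4.62% for all 10145 genes.

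Among the brush border enzymes, lactase dominated the sugar-splitting ones. Lct had 3217, 3857, 3770 and 3686 CPM and 1878 ± 102 TPM. Sis, the sucrase-isomaltase of the weaned gut, had 442, 523, 473 and 477 CPM and 213 TPM, and Mgam, the maltase-glucoamylase, had 618, 628, 586 and 637 CPM and 235 TPM. Per length, Lct exceeded Sis 8.47, 8.59, 9.28 and 9.0 times in pools 1 to 4, a mean of 8.84 ± 0.37, and exceeded Mgam by 8.01 ± 0.72 times. All 6 genes of adult-type digestion were nevertheless detected in every pool, with Krt20, a keratin of mature villus cells, the highest at 790 TPM and Arg2, an arginase, at 167 TPM. Cym, the milk-clotting chymosin gene, had 83.7, 106, 103 and 97.0 CPM.

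The alkaline phosphatases and peptidases had a median CV of 6.03% between pools. Alpi, the intestinal alkaline phosphatase, had 2439, 2733, 2710 and 2748 CPM and 3768 TPM, and exceeded its relative Akp3 by 3.34 ± 0.40 times per length. Anpep, an aminopeptidase, had 2510, 2537, 2330 and 2461 CPM and 1973 TPM. The carboxypeptidase Ace, which also acts in the angiotensin system, had 1345 TPM. All 12 genes of this list and all 11 microvillus genes were detected. Cdhr5, a protocadherin that links microvillus tips, led the latter at 2717 TPM, before the actin bundler Vil1 at 1703 TPM, the protocadherin Cdhr2 at 1450 TPM and the membrane linker Ezr at 979 TPM.

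The 100 bases before the RefSeq start sites of Lct, Sis and Alpi (GRCm38.p6, all on the minus strand) are shown because these brush border genes carry, close to the start, letters that match cores of intestinal or enterocyte factors. Capitals mark CATAAA or its complement TTTATG, a form of the CDX core, in Lct and Sis, and CAAAGTCCA, an HNF4-type element, in Alpi. The windows are Lct chr1:128328319-128328418, Sis chr3:72967864-72967963 and Alpi chr1:87101607-87101706.
Lct: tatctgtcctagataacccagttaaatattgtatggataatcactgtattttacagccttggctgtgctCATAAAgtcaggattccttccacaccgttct
Sis: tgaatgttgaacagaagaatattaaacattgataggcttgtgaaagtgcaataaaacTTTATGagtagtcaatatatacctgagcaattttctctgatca
Alpi: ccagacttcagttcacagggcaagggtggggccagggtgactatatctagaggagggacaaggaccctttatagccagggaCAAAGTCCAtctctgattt

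The first marked base lay 31 bases upstream of the start in Lct, 43 in Sis and 19 in Alpi. Over the 250 bases before the start and on both strands, CATAAA was found in 4 of 21 promoters of the 25 most abundant genes (19%), in 6.04% of 10504 promoters of detected genes and in 11.1% of all 27025 RefSeq promoters. By list, it was found in 7.14% of 56 absorptive, 18.5% of 27 suckling and 17.5% of 40 secretory promoters. It was found in 2.78% of 36 stromal, 5.41% of 37 immune and 40% of 10 pancreatic acinar promoters. The absorptive share was thus close to that of detected genes. The Lct match stands in the stretch where a TATA box would lie, so the letters could be read either way. CAAAGTCCA was found in 1 of the 21 promoters of the 25 most abundant genes, in 0.438% of the detected genes and in 0.374% of all. Genes of CDX and HNF4 factors were expressed, and whether their products act at these letters was not tested. Hnf4a had 806, 815, 801 and 784 CPM, Hnf4g 332 TPM against 551 TPM for Hnf4a, and Cdx2, the intestinal homeobox factor, 178, 189, 186 and 182 CPM. Elf3, an epithelial ETS factor, had 439 TPM.

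The genes of milk protein uptake were detected whole, 7 of 7. Fcgrt, the neonatal Fc receptor chain, had 1749, 2244, 2385 and 2152 CPM, or 3358 ± 379 TPM, and exceeded Pigr, the receptor that exports polymeric antibodies in the adult gut, by 3.57 ± 0.63 times per length. Cubn, the cubilin receptor for luminal protein, had 1020, 976, 1130 and 1114 CPM, and its partner Amn (amnionless) had 208, 211, 225 and 221 CPM. Pools 3 and 4 were the higher ones for both partners. Lrp2, the megalin receptor, was low at 7.21, 7.26, 6.67 and 7.37 CPM.

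All 16 lysosomal genes were detected, with a median of 615 TPM. Lgmn, the asparaginyl endopeptidase legumain, had 1413, 1353, 1600 and 1436 CPM (2073 TPM). The membrane protein Lamp1 had 1023, 1032, 1114 and 1068 CPM (1314 TPM). Pool 3 was the highest for 14 of the 16 genes, where 26.8% of all genes above 10 CPM were highest, and for 13 of 16 under library totals, where 23.7% were. Ctsz, a cathepsin, was among the exceptions at 548, 546, 550 and 563 CPM. The size of this difference was small, as the median lysosomal gene in pool 3 was 0.10 above the mean of the other pools on the log2 scale.

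Enterocyte synthesis of arginine precursors was represented by Oat, ornithine aminotransferase, with 1581, 1552, 1646 and 1589 CPM (2238 TPM), by Cps1, carbamoyl phosphate synthetase, with 1471, 1367, 1352 and 1367 CPM (830 TPM), and by Aldh18a1, which makes pyrroline-5-carboxylate, with 622 TPM. Otc, which makes citrulline, had 94.0, 92.9, 90.1 and 94.5 CPM. These genes varied little between pools, with a median CV of 3.82%. Ass1, which turns citrulline towards arginine, was listed at 0, 0.0745, 0 and 0 CPM. Widely expressed genes with near-identical copies were also at or near 0, among them the glycolytic enzyme gene Eno1 at 0 in all 4 pools and the ribosomal protein gene Rpl30 at a mean of 0.146 CPM. The handling of reads with several matches is not given in the sources used, so such values do not show that a transcript was absent.

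Transporters for sugars, peptides and amino acids were all detected, with a median of 253 TPM for 10 genes. Slc5a1, the sodium-glucose cotransporter, led with 769, 890, 849 and 901 CPM (688 TPM). The amino acid transporter subunits Slc3a1, Slc7a9 and Slc3a2 had 343, 321 and 295 TPM, an order that changes with the transcript length used.

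Markers of both ends of the small intestine occurred together. On the proximal side, Slc11a2 and Slc40a1, the import and export carriers for iron, had 794, 796, 820 and 814 CPM and 650, 681, 787 and 745 CPM. On the distal side, Fabp6, the ileal bile acid binding protein, had 163, 108, 93.5 and 121 CPM, while Slc51a, a subunit of the basolateral bile acid exporter, had 340, 307, 328 and 317 CPM. Pool 1 was lowest for 6 of 6 proximal genes, where 29.3% of all genes were, but for 2 of 6 with library totals, where 14% were, with summed levels of 2039 CPM in pool 1, against 2147, 2311 and 2257 CPM in pools 2 to 4, and it had the highest distal sum, 782 CPM against 674, 691 and 710 CPM. Slc10a2, the ileal bile acid uptake carrier, was at 4.52, 3.02, 1.97 and 3.0 CPM, which is 2.51 TPM, while the other distal members had 89.9 to 846 TPM. Whether the pools differed in the stretch of intestine sampled was not tested.

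The secretory lineages were all represented, with 43 of 49 listed genes in the table detected in every pool. Goblet cell genes were the most abundant. Tff3, a trefoil peptide of mucus, had 232, 261, 249 and 262 CPM (1686 TPM), Zg16, a lectin of the mucus layer, had 527, 705, 558 and 601 CPM (1573 TPM), and Fcgbp had 1058 TPM. Spink4 had 763 TPM. The mucin Muc2 had 697, 792, 747 and 774 CPM, which is 350 TPM with union exon length and 674 TPM with the longest transcript. Tff3 was above Zg16 with the first length and below it with the second, at 1334 and 2163 TPM. Retnlb, a goblet cell antimicrobial, was the goblet gene under 1 CPM, at 0.109, 0.186, 0.107 and 0.0485 CPM.

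Paneth cell transcripts were already measurable at this age. Lyz1, the Paneth lysozyme, had 383, 375, 335 and 332 CPM (936 TPM), the alpha-defensin genes Defa22 and Defa21 had 121, 118, 109 and 118 CPM and 110, 105, 99.3 and 110 CPM, and the lectin gene Itln1 had 214, 204, 187 and 195 CPM. Per length, Lyz1 exceeded the myeloid lysozyme gene Lyz2 by 7.30 ± 0.45 times. Defa24 was at a mean of 0.364 CPM. The alpha-defensin genes are near-identical copies, so the split of reads among them is uncertain.

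Hormone and other genes of enteroendocrine cells were all detected, 14 of 14, and were even between pools, with summed levels of 582, 582, 568 and 549 CPM. Gip, the incretin of K cells, had 68.3, 77.9, 78.2 and 69.3 CPM and the highest length-corrected level, 354 TPM. The granule protein gene Chgb had 229 TPM, somatostatin (Sst) 143 TPM and Chga 123 TPM, the last pair changing places with the longest transcript as length. Tuft cell genes were low, with a median of 2.76 TPM for 7 genes. Ptgs1, a cyclooxygenase, was the highest at 33.1 TPM and the cytokine gene Il25 was at 0 in every pool.

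Epithelial antimicrobial genes had the widest spread of the secretory lists, with a median CV of 28.5% over the 4 genes above 10 CPM. Reg3b and Reg3g, bactericidal lectins, had 116, 148, 93.5 and 171 CPM and 43.1, 53.9, 35.4 and 77.0 CPM, and pool 4 was the highest for both. Reg1 had 725, 1005, 526 and 559 CPM, an order of pools shared with the pancreatic genes described below, a tissue in which it is also expressed. Reg2 had 3.32, 6.78, 1.60 and 3.0 CPM, and Saa2 was at 0.

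Promoters of secretory genes are printed because the letters of a TATA box at the usual place had a larger share among them than among detected genes. The letters TATAA, read on the strand of the gene and beginning 40 to 20 bases before the RefSeq start, occurred in 15 of the 40 secretory promoters found in the table (37.5%), in 9 of 37 immune (24.3%), 4 of 36 stromal (11.1%), 2 of 27 suckling (7.41%) and 3 of 56 absorptive promoters (5.36%). Among detected genes the share was 2.5%, and among all 27025 promoters 3.67%. The 15 covered every lineage except tuft cells. They were Fcgbp, Muc2 and Spdef of goblet cells, Defa21, Defa22 and Mmp7 of Paneth cells, Reg1, Reg2, Reg3b and Reg3g, and Gip, Gcg, Pyy, Sct and Neurod1 of enteroendocrine cells. Capitals mark TATAA in the 100 bases before the start of Gip (chr11:96024445-96024544), Muc2 (chr7:141690240-141690339), Defa22 (chr8:21162177-21162276) and Reg3b (chr6:78370785-78370884), all on the plus strand of GRCm38.p6.
Gip: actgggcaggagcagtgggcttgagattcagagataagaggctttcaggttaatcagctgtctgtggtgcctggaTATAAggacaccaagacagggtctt
Muc2: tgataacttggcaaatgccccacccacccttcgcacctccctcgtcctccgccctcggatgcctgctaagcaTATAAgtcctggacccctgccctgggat
Defa22: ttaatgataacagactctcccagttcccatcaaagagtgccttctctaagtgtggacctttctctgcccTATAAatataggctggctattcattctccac
Reg3b: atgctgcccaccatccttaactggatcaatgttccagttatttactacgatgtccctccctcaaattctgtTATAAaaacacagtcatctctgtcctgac

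The first marked base lay 25, 28, 31 and 29 bases before the start in Gip, Muc2, Defa22 and Reg3b. A match of letters is a description of the window and not a tested site, and genes with no match may have other starts.

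Crypt genes were all detected, 23 of 23. Olfm4, a secreted protein of crypt base cells, had 589, 525, 506 and 511 CPM and 597 TPM, while Axin2, a target of Wnt signalling, had 72.8 TPM and the stem cell receptor Lgr5 had 36.4, 30.4, 31.1 and 35.8 CPM (10.8 TPM, or 18.3 TPM with the longest transcript as length). The cell division list had Pcna, the sliding clamp of DNA replication, at 137 TPM, the proliferation marker Mki67 at 78.9 TPM and the topoisomerase Top2a at 66.4 TPM, the last pair changing places with the longest transcript as length. Mki67 had 261, 232, 222 and 241 CPM, so pool 1 was highest and pool 3 lowest. That order was general, as 12 of 13 cell division genes were highest in pool 1 (29.8% of all genes were) and 11 of 13 lowest in pool 3 (28.8% of all genes were). Cytosolic ribosomal protein genes shared the low end, with 73 of 78 lowest in pool 3 and a median of -0.15 on the log2 scale against the other pools, and 50 of 78 were highest in pool 1. With library totals, 69 of 78 were lowest in pool 3, where 28.5% of all genes were, and 68 of 78 highest in pool 1, where 50.4% of all genes were.

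**Figure D3:**
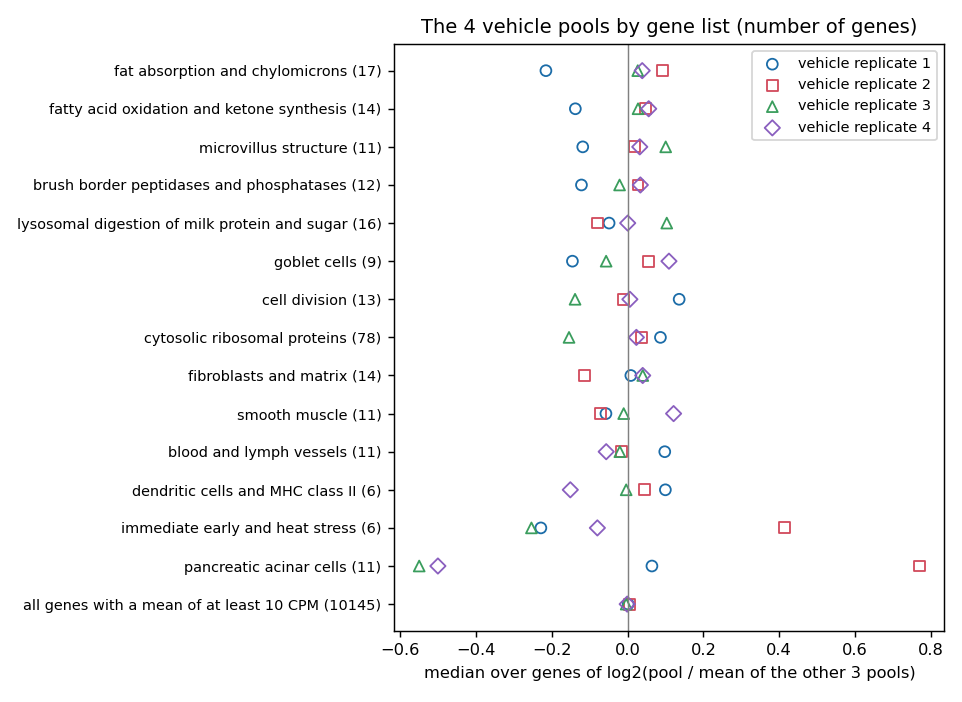
Median over the genes of each list (number in brackets, genes averaging 10 CPM or more) of the log2 ratio of a pool to the mean of the other 3 pools. Pool 1 lies at the left for the absorptive lists and at the right for cell division, pool 3 at the left for ribosomal proteins, pool 2 far right for pancreatic acinar genes, and all 4 markers meet at 0 for all genes.

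The stroma was dominated by matrix and muscle. Sparc, a matrix-binding glycoprotein, had 640, 605, 611 and 635 CPM (546 TPM), Col3a1, a fibrillar collagen, had 1270, 1200, 1350 and 1341 CPM (436 TPM), and Col1a1 had 644, 619, 674 and 699 CPM (333 TPM). Pool 2 was the lowest for 12 of the 14 fibroblast and matrix genes, where 21.3% of all genes were lowest. Smooth muscle genes had 765 TPM for Acta2, the alpha-actin of smooth muscle, 436 TPM for the gamma-actin Actg2, 327 TPM for the myosin heavy chain Myh11 and 309 TPM for Tagln (transgelin). Pool 4 was the highest for 11 of the 11 muscle genes, where 18.4% of all genes were highest, and for 10 of 11 with library totals, where 12.9% were. Actg2 shows the size of it, with 192, 196, 206 and 225 CPM.

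By list median, nerve, pacemaker and vessel genes were lower, at 4.43, 12.9 and 31.8 TPM. The fibroblast and matrix list and the smooth muscle list had medians of 116 and 254 TPM. Of 14 genes of enteric neurons and glia, 12 were detected, with a median of 4.43 TPM. Ret, the receptor of enteric nerve precursors, was the highest at 85.0, 86.7, 91.6 and 88.8 CPM (43.2 TPM), before the neuronal hydrolase Uchl1 at 24.0 TPM, while the acetylcholine-synthesising enzyme gene Chat and the glial filament gene Gfap were under 1 CPM. Kit and Ano1, which mark the pacemaker cells of the muscle, had 10.4 and 15.4 TPM. All 12 vessel genes were detected. Plvap, of the diaphragms of fenestrated capillaries, led with 207, 200, 191 and 190 CPM (329 TPM), and 9 of the 11 vessel genes above 10 CPM were highest in pool 1, next to 29.8% of all genes. With library totals the count was 11 of 11, next to 50.4% of all genes.

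Of the immune cell lists, the dendritic cell and MHC class II list and the macrophage list had the largest mean sums. These were 635 and 433 CPM, next to 833 CPM for the interferon-induced list described below. Among macrophage genes, the complement genes C1qa and C1qb had 51.6, 51.0, 41.3 and 46.1 CPM (151 TPM) and 42.6, 38.9, 34.8 and 35.4 CPM (116 TPM), and Csf1r, the receptor for the macrophage growth factor, had 166, 175, 190 and 190 CPM (103 TPM). All 10 macrophage genes were detected. Cd74, the invariant chain of MHC class II, had 268, 264, 255 and 236 CPM (505 TPM), and H2-Eb1, H2-Ab1 and H2-Aa had 163, 154 and 99 TPM. With the longest transcript as length H2-Ab1 had 259 TPM. The other members of the dendritic cell and MHC class II list were lower. Itgax had 22.9 TPM, Ciita 5.01 TPM, Xcr1 1.13 TPM and Flt3 1.05 TPM. Pool 4 was lowest for 6 of 6 genes of the dendritic cell and MHC class II list above 10 CPM, where 20.6% of all genes were lowest. MHC class II is also made by enterocytes at older ages, and the cell source in these pools was not tested.

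Those lymphocyte genes that were counted were close to the detection limit. Of 10 T cell and cytotoxic genes, 3 were detected in every pool, and Cd4, which macrophages can also express, had 12.2, 11.6, 11.2 and 11.3 CPM and, per length, 9.54 TPM, while the other 9 had 0.453 to 4.04 TPM. Cd3e, part of the T cell receptor complex, had 1.57, 1.60, 1.65 and 1.79 CPM, and Cd8b1 and Gzmb had means of 0.611 and 0.664 CPM. The 5 B cell genes in the table were all detected at low levels, with Cd79a, of the B cell receptor, at 6.96, 6.26, 5.44 and 4.36 CPM and the plasma cell gene Jchain at 5.97, 5.51, 5.23 and 7.17 CPM. Pool 4 was lowest for Cd79a and highest for Jchain. The immunoglobulin genes Ighm, Igha and Igkc of the same list were not among the gene symbols counted, so their level is unknown. Of 11 genes of mast cells, eosinophils and neutrophils, 3 were detected, led by the mucosal mast cell protease Mcpt1 at 15.5 TPM. Neutrophil genes S100a8, S100a9 and Elane were each under 1 CPM in every pool.

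Interferon-induced genes had a basal level in all pools, 12 of 12 detected, with a median of 69.3 TPM. Ifit1, an RNA-binding antiviral protein, had 160, 174, 184 and 173 CPM (216 TPM), and the factor Irf7 had 159, 180, 174 and 180 CPM (152 TPM). Pool 1 was the lowest for 8 of the 10 genes above 10 CPM, next to 29.3% of all genes.

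Digestive enzymes of the exocrine pancreas were present in every pool. Ctrb1, chymotrypsinogen B, had 1330, 1905, 1089 and 1011 CPM (5021 TPM), Pnliprp1, a pancreatic lipase-related protein, had 1233, 1746, 1007 and 1039 CPM (1867 TPM), and Cel, the bile salt-dependent lipase that digests milk fat, had 1181, 1665, 865 and 904 CPM (1812 TPM). All 11 genes of the acinar list were detected, and all 11 were highest in pool 2, where 25.1% of all genes were highest. Their summed level was 7009, 9823, 5191 and 5293 CPM, which is 0.722%, 0.964%, 0.518% and 0.525% of the counts. The ratio of highest to lowest pool ran from 1.73 to 2.64 over the 11 genes, with a median of 2.00. Proportions stayed closer in the pairs compared. Per length, Ctrb1 over Cel was 2.7, 2.74, 3.02 and 2.68. Cel over Cpb1, a carboxypeptidase, was 2.61, 2.60, 2.7 and 2.72. The 11 genes did not all move by the same amount. In pool 3 their log2 ratios to the mean of the other pools ran from -0.905 to -0.378. The part of pancreatic tissue in other genes' values was not tested. Leaving the acinar counts, at most 0.964% of a pool, out of the totals could shift other values only slightly. It moved no list's sum by more than its SD between pools. Among named genes, the CPM of 10 moved by more than its SD and that of 439 did not. The step does not measure pancreatic RNA in other genes' values.

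Genes listed for other neighbouring tissues had lower sums. Stomach genes summed to 52.2, 21.6, 51.8 and 47.3 CPM, and Tff1 and Gkn2, secreted by the gastric surface epithelium, had 18.3, 6.56, 16.6 and 17.3 CPM and 16.6, 6.56, 16.1 and 14.3 CPM, so pool 2, the richest in acinar transcripts, was the poorest in gastric ones. The proton pump genes Atp4a and Atp4b were at means of 0.985 and 0.0121 CPM. Of 8 hepatocyte genes 5 were detected, with a summed level of 84.3, 95.4, 106 and 100 CPM. Most of this sum came from Ttr and Serpina1a, and the other listed genes had 0.469 to 4.94 TPM. Whether the sum reflects liver tissue was not tested. Ttr, transthyretin, had 40.6, 38.0, 45.9 and 39.8 CPM (115 TPM) and Serpina1a, a protease inhibitor, had 34.6, 47.8, 48.9 and 43.9 CPM (79.1 TPM). Alb, albumin, had 1.28, 2.91, 2.56 and 7.32 CPM, and its mean was 2.25 CPM without pool 4, against 3.51 CPM with it. Milk protein genes were each under 1 CPM, with 0.219, 0.112, 0.320 and 0.145 CPM in sum. The fat cell list summed to 143, 170, 182 and 171 CPM, and its highest member was Cidec at 290 TPM. The other listed fat cell genes had 0.0946 to 3.93 TPM. Among them, Adipoq had 0.546, 1.38, 2.99 and 1.65 CPM. Whether the sum of this list reflects fat tissue was not tested. The globin genes were at 0, which falls under the same limit on near-identical copies as Eno1, and Alas2, the haem-synthesis enzyme of red cell precursors, had 3.64, 4.17, 3.89 and 4.46 CPM.

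The mouse Ugt1 genes had low counts, and the series has no mice without the transgene to compare them with. Ugt1a1, whose product conjugates bilirubin, had 9.07, 8.94, 8.54 and 8.24 CPM, Ugt1a7c had 4.01, 4.36, 3.79 and 3.92 CPM, and the other members of the mouse Ugt1 locus in the table had means under 1 CPM. Ugt2b34, from the separate Ugt2b family, had 374, 370, 377 and 367 CPM. Reads were aligned to the mouse genome, and how far reads of the human transgene were counted on mouse Ugt1 genes was not tested. The handling of reads shared by several genes is not given, so the low Ugt1 values do not show that transcripts were absent.

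The pools resembled each other closely. Among the 10145 genes averaging 10 CPM or more, the median CV was 4.62% (interquartile range 3.11% to 6.58%), and the common biological coefficient of variation, which edgeR separates from counting error, was 5.31%. A CV of at least 10% was seen for 648 genes, of at least 20% for 64 and of at least 50% for 5. By level, the median CV was 11.5% for genes of 1 to 10 CPM, 4.83% for 10 to 100 CPM and 3.84% for 100 to 1000 CPM, where counting alone gives 10.3%, 3.64% and 1.58%. For the 68 genes above 1000 CPM it was 6.50%, with counting at 0.517%, so the most abundant genes varied more between pools than the abundant genes below them. The lowest CV of the 10145 genes was 0.0845%, that of Rnpep, an arginine aminopeptidase, at a mean of 177 CPM. This is below the 1.55% that counting alone gives for Rnpep, so it marks the low end of many values and does not show that the gene is steadier than others.

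**Figure D4:**
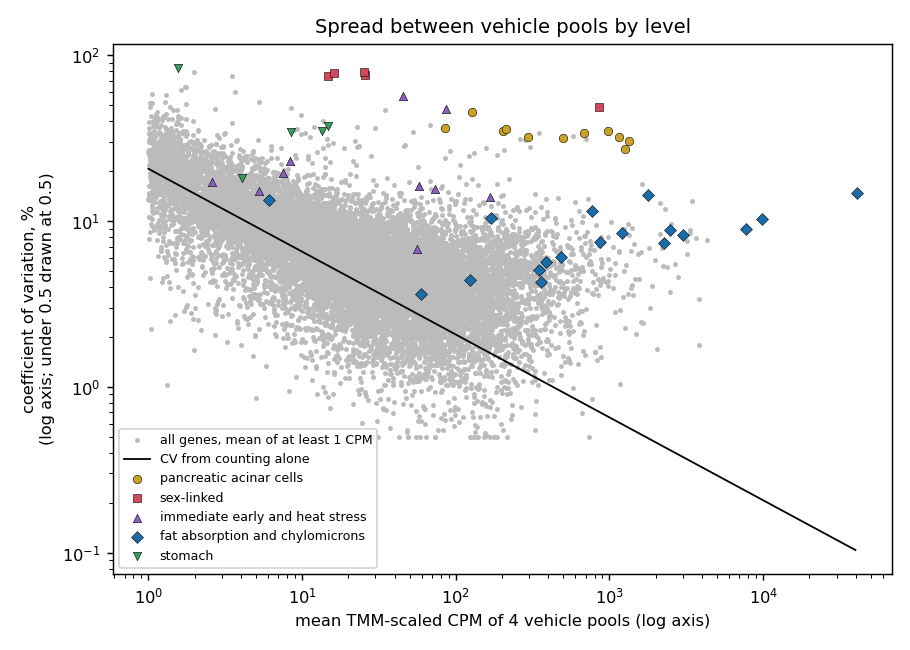
Coefficient of variation between the 4 vehicle pools against mean CPM (both log axes) for genes averaging 1 CPM or more, with the CV expected from counting alone as a line. Sex-linked, acinar, stomach and some immediate early genes lie above the cloud, and the fat absorption genes above 1000 CPM lie at 7.41% to 14.8%.

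Sex-linked genes had the largest spread. Ddx3y, an RNA helicase gene of the Y chromosome, had 43.2, 38.2, 21.2 and 0.194 CPM, and Eif2s3y, a translation factor gene of the same chromosome, had 41.8, 40.8, 17.9 and 0.145 CPM. Xist, the RNA that silences an X chromosome in females, had 451, 616, 967 and 1398 CPM. The orders were opposite. Summed over Y-linked genes, pools 1 to 4 had 138, 124, 63.8 and 0.533 CPM, which is 100%, 90.2%, 46.2% and 0.386% of pool 1, while Xist was at 32.2%, 44.1%, 69.2% and 100% of pool 4. The part of the sexes in the other differences between pools was not tested.

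Some immediate early genes, which respond within minutes to stimulation or handling, also had a large spread, while the list's median CV was 15.9%. Fos had 57.4, 144, 57.3 and 88.1 CPM and Egr1 had 36.2, 81.7, 21.5 and 41.2 CPM, and 6 of 6 genes of the list above 10 CPM were highest in pool 2, next to 25.1% of all genes. Pool 2 was also the pool with the most acinar transcripts, and whether these differences are linked was not tested. Hmox1, the haem-degrading oxygenase, stood out in pool 4 at 22.8, 28.1, 29.6 and 59.0 CPM. S100g, the calcium-binding protein calbindin-D9k, had 163, 177, 150 and 253 CPM, and Trpv6, the calcium channel of the enterocyte apical membrane, had 12.7, 11.9, 13.0 and 18.4 CPM, both highest in pool 4. In pool 3, Erdr1 and Mid1, genes of the pseudoautosomal end of the X chromosome, were low at 29.7 and 10.7 CPM, against 78.8 to 84.5 CPM and 24.0 to 29.9 CPM in the other pools. Tbc1d9 was high in pool 3, with 37.1, 35.1, 63.8 and 48.5 CPM. Pool 1 was low in Scd1, the stearoyl-CoA desaturase (16.8, 28.9, 27.4 and 17.8 CPM), a value shared with pool 4, and in the tight junction gene Cldn4 (73.0, 107, 124 and 119 CPM).

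**Figure D5:**
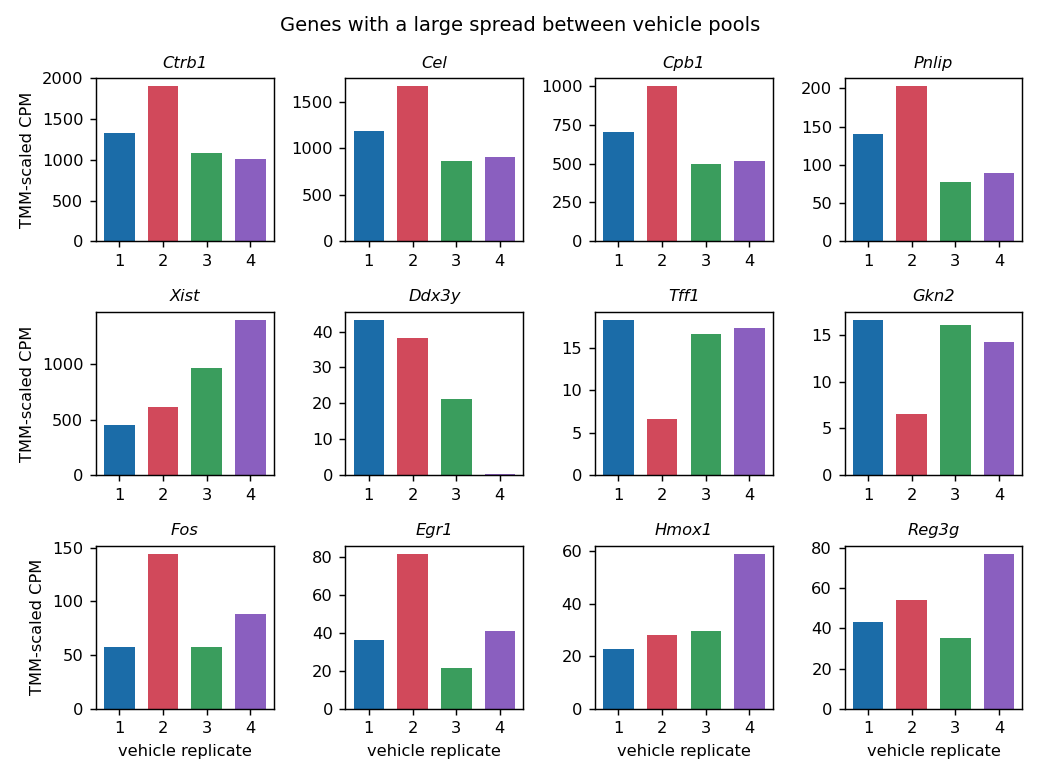
TMM-scaled CPM in vehicle pools 1 to 4 of 12 genes with a large spread, each panel with its own axis from 0. Acinar genes (Ctrb1, Cel, Cpb1, Pnlip) and Fos and Egr1 peak in pool 2, Tff1 and Gkn2 are lowest there, Xist and Ddx3y run in opposite orders, and Hmox1 and Reg3g peak in pool 4.

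Genes of the body clock, which shift with the hour of sampling, were close between pools for 9 genes above 10 CPM, with a median CV of 6.15%. Per1, a light-responsive clock gene, was the exception among the abundant ones at 75.7, 78.5, 99.3 and 101 CPM, so that pools 1 and 2 were apart from pools 3 and 4, while Per2 had 132, 124, 130 and 119 CPM.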

How the data were processed

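RNA sequencing libraries of vehicle-treated mouse small intestine were analysed. Per the labels' protocols, TRIzol RNA and the Illumina Stranded mRNA kit were used. The submitters' processing notes name bcl2fastq 2.20, STAR 2.7.9a, DESeq2 1.34.0 and the mm10 build. Which program counted reads, on which annotation and strand, is not given in the sources used, so reads of overlapping, antisense or near-identical genes cannot be divided between them. The authors deposited raw counts per gene symbol, from which every value here was computed.

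Counts of the 4 vehicle pools were scaled by TMM (edgeR 4.0.16 in R 4.3.3) to CPM. TPM was computed from union exon lengths of GENCODE M21, and 24027 of 24411 symbols matched, 651 of them through RefSeq synonyms. Symbols without a match held 0.288% of the counts. The common biological coefficient of variation came from estimateDisp with an intercept only, and the step was tested on simulated data. No contrast and no test between groups was made, and intervals reflect the spread between pools of 3 mice. A gene was called detected at 1 CPM or more in all 4 pools. Alternatives were library totals, DESeq2 1.42.0 size factors, TMM over all 8 libraries, other filters, transcript lengths, and leaving out each pool. Totals without acinar genes and a spread without acinar and sex-linked genes were chosen after seeing the data.

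Named genes were the 25 highest by CPM, up to 4 members of each list with the highest TPM and defining members under 1 CPM, the 15 genes with the largest and 10 with the smallest CV, and the 8 genes most above or below the other pools in each pool. Akp3, Apoa5, Apoc2, Apoc3, Cd3e, Cpb1, Eno1, Gcg, Lgr5, Lrp2, Mmp7, Muc2, Neurod1, Pyy, Reg2, Rpl30, Sct, Slc10a2, Spdef, Ugt1a1 and Ugt1a7c were chosen after their values were seen. So were Ciita, Flt3, Itgax and Xcr1. Not every gene under these rules is reported here. Members, lists (43, with 406 genes, 400 in the table) and rules were chosen with earlier results of these data known.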

Additional observations from a re-analysis of the deposited data

Results flagged for a closer look

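Among 205 values checked, 7 had a pool far from the other 3, and chance alone flags about 1 in 20 groups. Alpi was low in pool 1 at 2438.7 CPM, against 2710 to 2748 CPM in the other pools, and Fcgbp was low there at 2913 CPM, against 3450 to 3547 CPM. Cps1 was high in pool 1 at 1471 CPM, against 1352 to 1367 CPM. The summed level of the sugar, peptide and amino acid transporters was 2620 CPM in pool 1 and 2863 to 2890 CPM elsewhere. Pool 2 was low in Tff1, at 6.56 CPM against 16.6 to 18.3 CPM, and in the stomach list, at 21.6 CPM against 47.3 to 52.2 CPM. Erdr1 was low in pool 3 at 29.7 CPM, against 78.8 to 84.5 CPM.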

How the results depend on the processing

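The count of genes detected ran from 13785 to 14756 over all scalings, filters and left-out pools, and the share of the 100 most abundant genes from 20.7% to 21.4%. The common biological coefficient of variation was 5.31% and moved to 4.92% without sex-linked and acinar genes, and leaving out each pool gave 4.88% (without pool 1) to 5.72% (without pool 4). Leaving out a pool moved a named gene's mean by over 1.5 times only for Alb. With the longest transcript as length, 277 length-scaled levels moved by more than their SD between pools and 170 did not, and 24 of 434 genes moved by 1.5 times or more, with ratios of 0.787 to 3.23. Lct over Sis was then 7.31, Muc2 674 TPM, H2-Ab1 259 TPM, Lgr5 18.3 TPM, Zg16 2163 TPM and Tff3 1334 TPM. The counts of moved genes and these TPM levels include a shift of the whole scale. Apoa4, with 1815 bases by either length, had a ratio of 0.791. No mitochondrially encoded gene was in the table, so leaving them out was not run. No paired analysis was possible because a single group was described. Genes under 10 CPM are limited by counting.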

Other observations

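A search made after the values were seen looked for genes averaging 10 CPM or more that were higher in pool 2 than in pool 1, and higher in pool 1 than in pools 3 and 4, by more than 1.2 times at each step. Of 10145 genes, 27 (0.266%) had this order, and 10 of them were on the acinar list, whose values prompted the search. Of the rest, most are known from the exocrine pancreas, among them the colipase gene Clps, the zymogen granule genes Gp2 and Sycn, the ribonuclease gene Rnase1, and Rbpjl, a transcription factor of acinar cells. Rbpjl had 10.3, 15.6, 8.32 and 7.80 CPM in pools 1 to 4, and Cela1, an elastase, had 642, 823, 415 and 445 CPM. Reg1 was also among the 27, and so was Nr4a1, an immediate early gene.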
